A study of Homo sapiens with 6 samples.

Results

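The 9 genes described here encode enzymes that make, recycle, break down and use glutathione, the main small thiol antioxidant of human cells. They are OPLAH, GGCT, CHAC2, GCLC, GCLM, GSS, GSR, GPX1 and GPX4, all 9 found by symbol among the 34675 genes of the deposited comparison. The set was built around OPLAH, which was chosen by its low level in condition A of this comparison. The other 8 were listed by name for their place in the pathway, with results of these data already known. The difference of OPLAH is therefore a description. Where OPLAH passes a threshold in the counts that follow, its choice had fixed that, and it is no test of OPLAH.

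Glutathione is built in a pair of ATP-dependent steps. Glutamate-cysteine ligase, a dimer of the catalytic subunit GCLC and the modifier subunit GCLM, joins glutamate to cysteine, and glutathione synthetase (GSS) adds glycine. Glutathione peroxidases oxidise glutathione while reducing peroxides, and glutathione reductase (GSR) restores the reduced form with NADPH. CHAC2 cleaves glutathione inside the cell, GGCT cleaves gamma-glutamyl peptides, and both release 5-oxoproline. OPLAH, the ATP-dependent 5-oxoprolinase, opens that ring to give back glutamate and so closes the gamma-glutamyl cycle.

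RNA was sequenced from U2932, an established line of human diffuse large B cell lymphoma cells. Cells carried either an shRNA against PRDM11 (plasmid TRCN0000358536, 3 samples) or a scrambled shRNA in pLKO-puro (3 samples). Both groups were selected with puromycin for 3 days, the knockdown rests on 1 hairpin, and no label says that replicates were separate cultures. The deposited table names its conditions only A and B, and no header or label ties either of them to a hairpin, so each difference is condition A relative to condition B. The conditions are called A and B from here on.

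PRDM11 itself had 268.0, 272.1 and 322.7 normalised reads under A and 565.5, 515.9 and 544.9 under B. Normalised reads are read counts divided by a size factor for depth, and whole reads of 3 libraries per condition were recovered from the deposited means. Libraries carry the numbers 1 to 3 within a condition, the largest size factor first. Size factors ran from 0.7684 to 1.2091. All 6 B cell markers examined were abundant, at means of 1792 to 77768, and their sum was 211639 under A and 181577 under B. Of 9 T cell, myeloid, epithelial and fibroblast markers 8 had a row, at means of 0.946 to 1263, and they summed to 1419 under A and 1365 under B. The highest of these was EPCAM, an epithelial adhesion gene. The part of these marker levels in the results was not tested.

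GPX1 and GPX4 carry selenocysteine in their active site, read from a TGA codon that elsewhere ends translation. They share this with SEPW1 (selenoprotein W), the only selenoprotein gene of the related lists called by the authors' deposited adjusted p. The codon is therefore shown for all of these genes. Each line gives 12 coding bases on either side, with the TGA in capitals, from the GENCODE 29 transcripts.
GPX1: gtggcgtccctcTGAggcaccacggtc
GPX4: gtggcctcccagTGAggcaagaccgaa
SEPW1: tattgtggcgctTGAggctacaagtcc
In GRCh38 the codon lies at chr3:49358132-49358134 on the minus strand in GPX1, where it is codon 49, and at chr19:1105403-1105405 on the plus strand in GPX4, codon 73. In SEPW1 it lies at chr19:47780732-47780734 on the plus strand, codon 13.

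OPLAH was the 1 member called in the authors' deposited table, at an adjusted p under 0.05, and it was lower under A. Across all rows 2.54% were called, 1.57% lower and 0.966% higher under A, and 6.04% were called among rows with a mean of at least 50, which all 9 members reached. Since the set was built on this contrast, nothing is read from that count.

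OPLAH (ENSG00000178814) spans chromosome 8, 145106230 to 145114935 (hg19, coding part), in 27 coding blocks, and the positions given with the other members are likewise the hg19 span of their coding intervals. It had 47.1, 63.4 and 57.3 normalised reads in the A libraries and 142.1, 158.0 and 169.3 under B. The highest library of A lay well under the lowest of B. The means were 55.9 ± 8.2 under A and 156.5 ± 13.7 under B (SD, n = 3 each), so that A held 35.7% of the level of B, a log2 ratio of -1.48. These values rest on 57, 65 and 44 whole reads under A and 155, 166 and 161 under B. With any 1 library left out, the log2 difference fitted with limma stayed between -1.58 and -1.37. Of 13565 rows with a mean of at least 50, 5 had a lower log2 ratio. In bulk RNA, fewer cells that express a gene and less of its RNA per cell cannot be told apart.

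**Figure D1:**
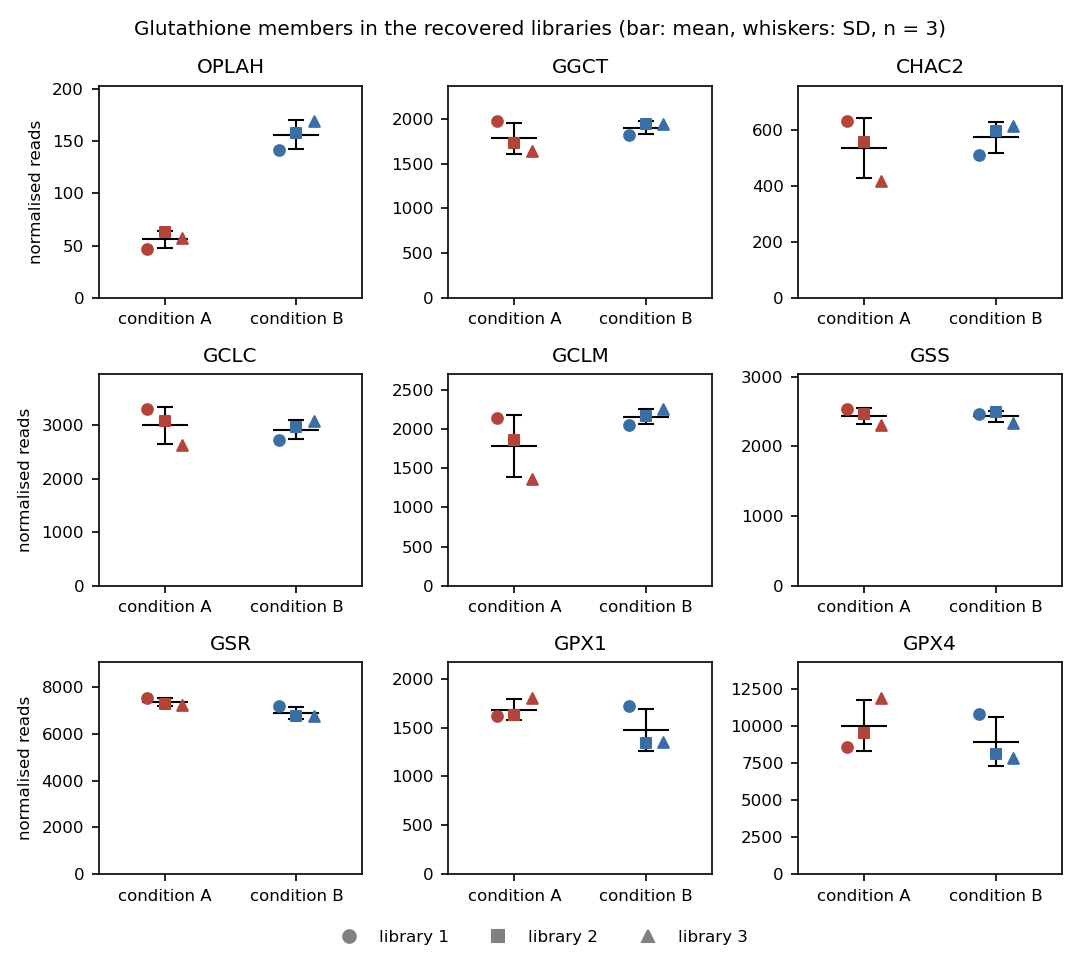
Normalised reads (y axis, from 0) of each of the 9 genes in the 3 recovered libraries of A (red) and of B (blue), with the mean as a bar and the SD as whiskers. OPLAH runs from 47.1 to 63.4 under A and from 142.1 to 169.3 under B, while the ranges of GGCT, CHAC2, GCLC, GCLM, GSS, GPX1 and GPX4 overlap.

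The enzymes that release 5-oxoproline, the substrate of OPLAH, showed no called difference. GGCT (ENSG00000006625, chromosome 7, 30536711 to 30544325) had 1975, 1737 and 1638 normalised reads under A and 1821, 1946 and 1948 under B. The A libraries spread on both sides of those of B. Its log2 difference in the limma fit was -0.10 with a 95% interval from -0.30 to 0.10, and the authors' deposited table gives it an adjusted p of 1. CHAC2 (ENSG00000143942, chromosome 2, 53995024 to 54001659) had 632.7, 557.8 and 419.0 under A and 511.4, 596.8 and 615.3 under B. Its SD of 108.4 within A was larger than the gap between the means of 536.5 under A and 574.5 under B. The interval of the CHAC2 difference ran from -0.44 to 0.21, and the authors' deposited table gives it an adjusted p of 1.

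The synthesis enzymes gave no called difference either. GCLC (ENSG00000001084, chromosome 6, 53363557 to 53409443) had 3299, 3092 and 2625 normalised reads under A and 2721, 2963 and 3081 under B, with overlapping ranges. The interval of its log2 difference was -0.18 to 0.25. GCLM (ENSG00000023909, chromosome 1, 94354549 to 94374719) had 2144, 1852 and 1364 under A and 2051, 2168 and 2247 under B. Library 3 of A was the lowest of the 6, and library 1 of A fell within the range of B. The mean was 1787 ± 394.1 under A and 2155 ± 98.4 under B (SD, n = 3 each), with a log2 ratio of -0.27. The authors' deposited table gives GCLM an adjusted p of 0.965. That ratio was -0.11 without library 3 of A and -0.42 without library 1 of A. In the limma fit the GCLM difference was -0.29 with an interval from -0.61 to 0.02, and it was called only with library 1 of A left out, at a limma adjusted p of 0.0419. GSS (ENSG00000100983, chromosome 20, 33516634 to 33539655) was the closest to equal, with 2528, 2462 and 2300 under A and 2458, 2495 and 2340 under B. The interval of the GSS difference was -0.17 to 0.17.

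GSR (ENSG00000104687, chromosome 8, 30537040 to 30585352), which recycles oxidised glutathione, had 7546, 7279 and 7215 normalised reads under A and 7200, 6746 and 6775 under B. The ranges of GSR did not overlap, but the lowest library of A and the highest of B were nearly equal. Its log2 difference of 0.09 had an interval from -0.07 to 0.25, and the authors' deposited table gives it an adjusted p of 1. GSR and OPLAH were the 2 members whose ranges did not overlap, and 34.4% of the 12475 genes with recovered reads whose mean reached 50 showed such separation.

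The peroxidases were nominally higher under A without passing the test. GPX1 (ENSG00000233276, chromosome 3, 49394824 to 49395711), the abundant cytosolic peroxidase, had 1617, 1625 and 1806 normalised reads under A and 1723, 1345 and 1352 under B. Library 1 of B lay above libraries 1 and 2 of A. The interval of the GPX1 difference was -0.04 to 0.44, and the authors' deposited table gives it an adjusted p of 0.926. Without library 1 of B its log2 ratio was 0.32, against 0.19 with all libraries. GPX4 (ENSG00000167468, chromosome 19, 1104043 to 1106775), which reduces lipid hydroperoxides in membranes, had 8612, 9544 and 11943 under A and 10870, 8138 and 7849 under B. Its SD was 1718 under A and 1667 under B, both larger than the difference of the means of 10033 under A and 8952 under B. The interval of the GPX4 difference was -0.15 to 0.48. The log2 ratio of GPX4, 0.16 with all libraries, became 0.02 without library 3 of A and 0.33 without library 1 of B. GPX1 can share reads with its pseudogene GPX1P1, which the authors' deposited table lists at 97.07 normalised reads under A and 86.92 under B.

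With all libraries the limma fit called 0 of the 8 members other than OPLAH, where 9.12% of the 16523 genes tested were called. In the deposited values 0 of these 8 had an unadjusted p under 0.05, against 20.8% of the 13565 rows with a mean of at least 50. With 8 genes, neither count sets the members apart from the rest. In the deposited means, 4 of the 8 other members had a log2 ratio below 0 and 4 above, with a median of 0.02 and a range from -0.27 to 0.19. The median over all rows with a mean of at least 50 was 0.00.

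**Figure D2:**
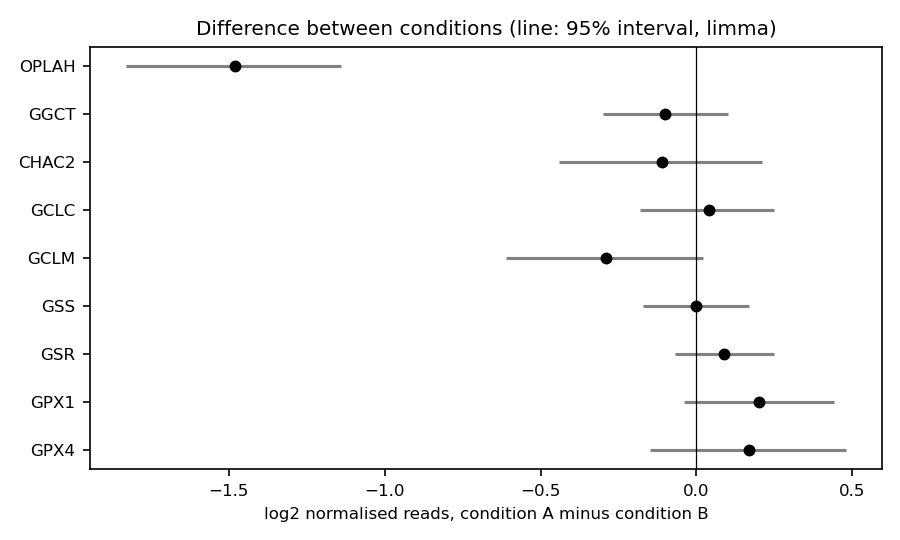
Log2 normalised reads under A minus B (x axis) for each of the 9 genes (y axis), as points with 95% intervals from the limma fit on recovered reads, n = 3 per condition. The intervals of the 8 genes other than OPLAH include 0, and the widest bounds among them are -0.61 for GCLM and 0.48 for GPX4; the interval of OPLAH is shown as a description.

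Per kilobase of annotated exon, OPLAH was the lowest of the set in both conditions, and GPX4 the highest. GPX4 stood at 4969 ± 851.0 normalised reads per kilobase under A and 4434 ± 825.8 under B. GSR followed at 1954 ± 46.7 per kilobase under A and 1837 ± 67.6 under B. GPX1 at 1177 ± 74.9 and GGCT at 1117 ± 108.4 per kilobase under A were within 1 SD of each other. Under B they stood at 1030 ± 151.3 for GPX1 and 1193 ± 45.5 for GGCT, in the other order. That change of order depends on the length used. By the longest coding transcript, GGCT was above GPX1 in both conditions, at 1520 against 1462 under A and 1624 against 1280 under B.

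The remaining synthesis and turnover genes lay close together. Under A the levels per kilobase were 406.2 ± 82.1 for CHAC2, 393.6 ± 19.1 for GSS, 347.6 ± 40 for GCLC and 329.6 ± 72.7 for GCLM. In B the levels were 434.9 ± 42, 393.8 ± 13.1, 337.9 ± 21.2 and 397.6 ± 18.2 in the same gene order. Under A the ranges of these genes over libraries overlapped. Under B the range of GCLC, 314.7 to 356.3 per kilobase, lay below those of CHAC2, GSS and GCLM, which overlapped each other. OPLAH was far below them, at 12.6 ± 1.84 per kilobase under A and 35.1 ± 3.08 under B (all SD, n = 3). Divided by the longest coding transcript instead, GSS came to 899.4 and GCLC to 788.2 per kilobase under A, above the 406.2 of CHAC2, while OPLAH stayed lowest at 13.9.

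Within each condition, 1 library was compared with the other 2, and its difference from them followed base composition. Across 9309 genes that reached a mean of 100 and had an annotated coding transcript, the difference between library 3 and the mean of libraries 1 and 2 of A rose with GC content (Spearman rho 0.68 across genes). Under B the same held for library 1 against libraries 2 and 3 (rho 0.69). The difference under B also fell with transcript length (rho -0.47), while the difference under A was little related to length (rho -0.09). These are descriptions across genes of the same libraries, and genes are not independent replicates. No other contrast within a condition was computed, so whether another library differed as much was not tested. The log2 ratio between the conditions was less related to GC content, at rho 0.24.

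The members with the highest and lowest GC content, OPLAH apart, deviated in the same sense. GPX4, with a GC content of 65.2%, and GPX1, with 64.2%, were raised by 0.40 and 0.16 on the log2 scale in library 3 of A. In library 1 of B they were raised by 0.44 and 0.35. Their longest coding transcripts, of 1002 and 1151 bases, were also the shortest of the set. CHAC2 at 36.7% GC and GCLM at 37.3% differed by -0.50 and -0.55 in library 3 of A, and by -0.24 and -0.11 in library 1 of B. OPLAH had the highest GC content of the set, 66.6%, and differed by 0.07 in library 3 of A and by -0.20 in library 1 of B. Among the 1361 genes of at least 60% GC the median log2 ratio of A over B was 0.04. The part of base composition and of transcript length in the differences of OPLAH and of the other members was not tested.

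**Figure D3:**
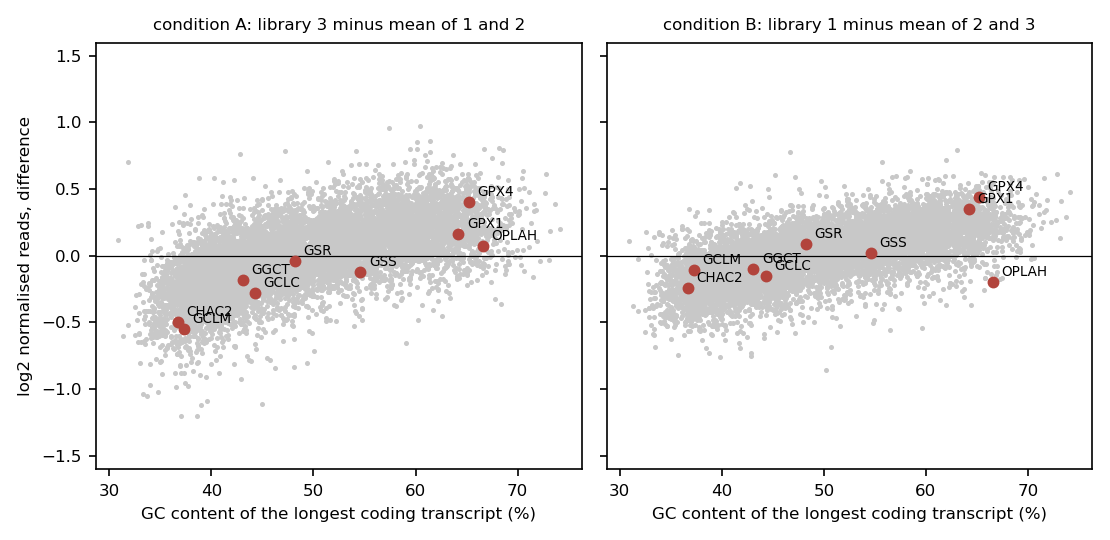
GC content of the longest coding transcript in percent (x axis) against the log2 difference of 1 library from the other 2 of its condition (y axis), for A library 3 (left) and B library 1 (right). Grey points are genes that reached a mean of 100 and red points the 9 glutathione genes; GPX4 lies at 0.40 and 0.44, CHAC2 at -0.50 and -0.24.

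The genes beside OPLAH on chromosome 8 had log2 ratios closer to 0, which the choice of OPLAH by its difference had nearly fixed. Of 13565 rows with a mean of at least 50, only 14 had a log2 ratio at least as large in size as that of OPLAH. In all, 9 genes had coding intervals within 100 kb and a mean that reached 50. Of these, 0 passed the adjusted p of DESeq that the authors' deposited table holds, 0 its unadjusted p at 0.05, and 0 were called by limma. Among all rows with a mean of at least 50, 6.04% passed the adjusted and 20.8% the unadjusted p, and limma called 9.12% of the genes it tested. With 9 genes, these counts do not set the neighbours apart from the rest. Their log2 ratios ran from -0.29 for KIAA1875, a gene low in both conditions, to 0.26 for SHARPIN, a ubiquitin ligase subunit, with a median of -0.01. For EXOSC4, an RNA exosome subunit and the nearest of them at 18.7 kb, the authors' deposited table gives means of 1496 under A and 1420 under B. By the authors' deposited table GPAA1, a subunit of the enzyme that attaches membrane anchors, averaged 3531 under A and 3555 under B. CYC1, cytochrome c1 of the respiratory chain, averaged 9200 under A and 8444 under B in the authors' deposited table. MAF1, GRINA, PARP10 and PLEC had log2 ratios of 0.05, -0.15, -0.19 and -0.06.

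The genes nearest to OPLAH in pattern were CCDC78, RBM47, FADS2, FNDC1 and VCL. Likeness was the root mean square difference of log2 normalised reads over the 6 libraries, each gene centred on its own mean, among 10053 genes that had a symbol and reached a mean of 50. It ran from 0.183 for CCDC78 to 0.213 for VCL, the gene of the actin linker vinculin. CCDC78 had 134.8, 197.0 and 151.0 normalised reads under A and 361.1, 335.1 and 386.0 under B. RBM47, an RNA-binding protein gene, averaged 353.2 under A and 783.4 under B, and VCL 526.2 under A and 1176 under B, by the authors' deposited table. Since OPLAH was chosen by its difference, nearness to it also selects genes that differ between the conditions.

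Of 123 other genes in 9 lists of glutathione-related functions, 113 had a row and 9 were called, 6 lower and 3 higher under A in the authors' deposited table. Among the 99 of them with a mean of at least 50 these calls were 9.09%, against 6.04% of all such rows. The median log2 ratio of the 99 was -0.04, with 57 below 0 and 42 above. The limma fit called 12 of the list genes lower and 5 higher, beside 886 lower and 621 higher among all 16523 genes. Not all of the 113 were tested by limma. Even over all 113, these calls were a larger share than the 9.12% called among all genes. Nothing is read from that, as the lists were chosen with earlier results of these data known. With the summed means of the conditions made equal limma called 19 lower and 4 higher, beside 1456 lower and 431 higher among all genes. The lists thus shifted in the same direction as the whole table.

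HAGHL, a gene similar in sequence to the glyoxalase HAGH, was the lowest of these. It had 232.4, 291.6 and 259.0 normalised reads under A and 591.1, 482.6 and 554.3 under B, with no overlap. Its log2 ratio was -1.06 (6.55e-11 as the DESeq adjusted p of the authors' deposited table), and limma called it with any 1 of the 6 libraries left out. The coding intervals of HAGHL and CCDC78 lie 1143 bases apart on chromosome 16 in hg19, and whether reads were shared between these neighbours cannot be told from the table. HAGH itself was not called, at a log2 ratio of -0.32 with 0.405 as its adjusted p (authors' deposited table).

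Of the glutathione transferases, which couple glutathione to other molecules, GSTM1 and GSTM2 of the mu class were called lower under A. GSTM2 had 71.1, 71.2 and 63.8 normalised reads under A and 129.2, 113.3 and 130.4 under B (log2 ratio -0.86, with 0.00333 as the DESeq adjusted p of the authors' deposited table). GSTM1 had 203.5, 152.1 and 166.6 under A and 276.8, 234.2 and 272.4 under B (log2 ratio -0.59, with 0.0212 as the DESeq adjusted p of the authors' deposited table). GSTM4 was not called, with a log2 ratio of -0.30. The hg19 coding span of GSTM2, 110210738 to 110251195 on chromosome 1, contains that of GSTM1, 110230496 to 110235914. GSTM genes also resemble each other closely, so the counting could have divided reads among them, and the calls of GSTM1 and GSTM2 may not be separate. Leaving out 1 library at a time, limma called GSTM2 in 6 of 6 fits and GSTM1 in 2 of 6. The other 16 transferase genes with a row were not called, and GSTP1, the most abundant of the list, averaged 38798 under A and 34157 under B by the authors' deposited table.

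IDH1 and NNT, sources of the NADPH that GSR uses, were called lower under A. IDH1, the cytosolic NADP-dependent isocitrate dehydrogenase, had 1311, 1245 and 986.5 normalised reads under A and 1639, 1971 and 1949 under B (log2 ratio -0.65, with 0.00146 as the DESeq adjusted p of the authors' deposited table). NNT, the transhydrogenase of the inner mitochondrial membrane, had 2796, 2831 and 2391 under A and 3572, 3967 and 4114 under B (log2 ratio -0.54, with 0.00115 as the DESeq adjusted p of the authors' deposited table). The other 10 genes of this list with a row were not called. With any 1 library left out, limma called IDH1 and NNT in 4 of 6 fits each.

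CHAC1, the stress-induced relative of CHAC2 that also cleaves glutathione, was the 1 gene called in the list of the gamma-glutamyl cycle and cysteine supply. It had 295.3, 340.4 and 387.8 normalised reads under A and 499.5, 459.8 and 406.0 under B, without overlap. Its log2 ratio was -0.42 and the DESeq adjusted p, 0.0496 by the authors' deposited table, lay just inside the threshold. The limma adjusted p was 0.0633, and limma called it in 1 of 6 fits with a library left out. SLC7A11, the cystine importer, had 2273, 2000 and 1541 under A and 1745, 2334 and 2482 under B, with overlapping ranges. The authors' deposited table gives SLC7A11 an adjusted p of 1.

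TXNIP, SQSTM1 and SEPW1 were the genes called higher. TXNIP, which binds and restrains thioredoxin, had 837.8, 836.7 and 762.6 normalised reads under A and 566.4, 590.2 and 649.0 under B (log2 ratio 0.43, with 0.0261 as the DESeq adjusted p of the authors' deposited table). SQSTM1, the autophagy receptor p62, had 10040, 10975 and 11876 under A and 9225, 7423 and 7510 under B (log2 ratio 0.45, with 0.0263 as the DESeq adjusted p of the authors' deposited table). SEPW1 had 1226, 1311 and 1408 under A and 1062, 829.1 and 866.7 under B (log2 ratio 0.52, with 0.00486 as the DESeq adjusted p of the authors' deposited table). The ranges of these 3 genes did not overlap between conditions, as for 34.4% of the genes with recovered reads whose mean reached 50. That share also stands beside the separated ranges given for HAGHL, CHAC1 and HMOX1. The SQSTM1 libraries of A were 1 of 2 read sets that fit its mean, taken because each lay at 0.7 to 1.4 times that mean, and the calls of SQSTM1 by limma rest on that choice. Leaving out 1 library at a time, limma called TXNIP in 2 of 6 fits and SQSTM1 and SEPW1 in 3 of 6 each.

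The lists themselves were mostly uncalled. The NRF2 list, of the factor that drives many antioxidant genes and of its regulators and targets, had 10 of 13 log2 ratios above 0 and a median of 0.24, with SQSTM1 the 1 gene called. NFE2L2, the gene of NRF2, had a log2 ratio of -0.07, and KEAP1, its inhibitor, of 0.30. Among 16 glutaredoxin, thioredoxin and peroxiredoxin genes the median was 0.06, and in the 19 selenoprotein and selenocysteine machinery genes it was 0.00. Of these 19, limma called SEPW1 and TRNAU1AP higher and SELM, SECISBP2 and SCLY lower under A. Of the other glutathione peroxidases, 0 of 3 were called by DESeq, 0 had an unadjusted p under 0.05, and 0 of the 2 tested were called by limma. The authors' deposited table gives GPX7 562.1 under A and 514.6 under B, and GPX3 90.09 under A and 88.24 under B. In glutamate supply 0 of 8 were called by DESeq, while 2 (GLUL and SLC1A4) had an unadjusted p under 0.05 and limma called GLUL, 1 of the 4 it tested. GLUL, glutamine synthetase, had the smallest p of that list, with a log2 ratio of -0.30 and 0.182 as its adjusted p (authors' deposited table).

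**Figure D4:**
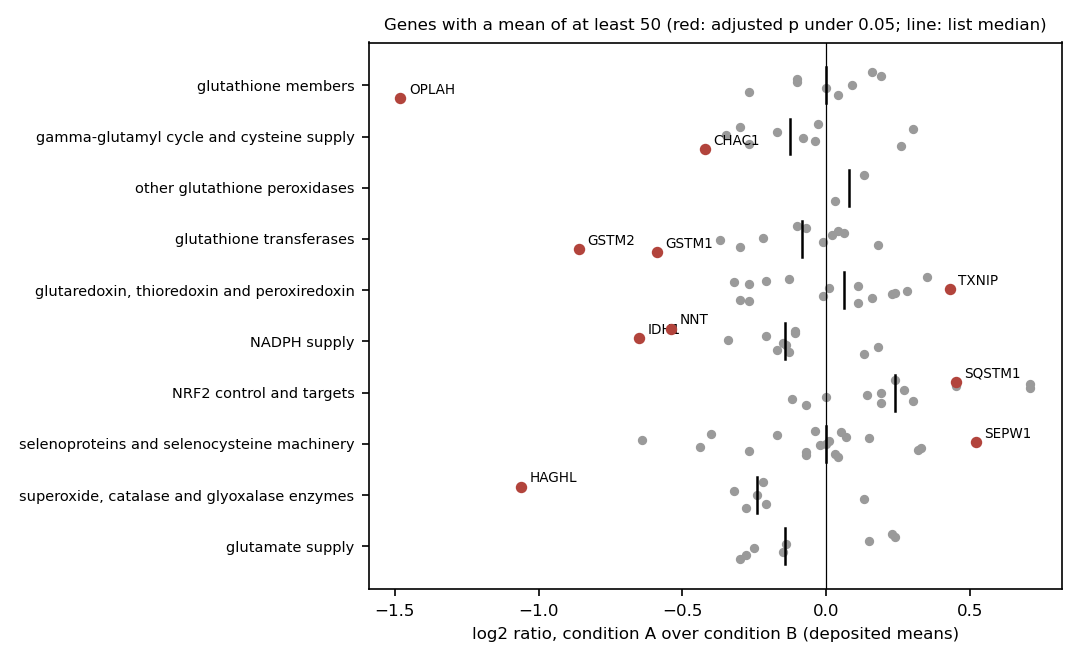
Log2 ratio of A over B from the deposited means (x axis) for genes that reached a mean of 50 in the glutathione set and in 9 related lists (y axis). Red points with names passed a deposited adjusted p of 0.05 and black lines are list medians; OPLAH at -1.48 and HAGHL at -1.06 lie farthest to the left, and SEPW1 at 0.52 is the highest of the called genes.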

How the data were processed

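RNA sequencing of 6 samples in 2 groups was analysed. The submitters' processing notes name STAR, HTSeq 0.5.4p5, DESeq 1.14.0 and hg19; which tool did what, and whether counting used strand, is not given in the sources used here. Per the file headers, the deposited table gives the signal (mean normalised read counts) of each condition, a fold (ratio B over A) with its log2, and p-values before and after adjustment. The deposited adjusted p is the Benjamini-Hochberg value over all 34675 rows, as recomputed. The sign of the deposited log2 was turned to A over B. A deposited track with a score per interval supplied hg19 coding intervals only, counted from 1. No column of per-sample values was left out.

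Since a condition's mean weights 3 whole read counts by their size factors, the reads were recovered by integer search (means up to 11000, Python 3.11.15). It gave 1 solution for 33738 of 33881 rows (A) and 33800 of 33929 (B). Above a mean of 1500, genes outside the lists were accepted only with each library at 0.7 to 1.4 times the mean. In condition A several genes of the lists had more than 1 solution, among those named GSR, GPX4, KEAP1, SQSTM1, NFE2L2 and CNDP2, and the 1 within those bounds was taken. Recovered rows carry 55.4% (A) and 58.6% (B) of the summed means, so totals are not full depth, with 18869589 to 29209012 reads per library.

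The planned count test needs counts per sample, so the deposited adjusted p under 0.05 gave the calls, and limma 3.58.1 (R 4.3.3; trend, log2 of normalised reads plus 0.5, mean of at least 10) gave intervals and alternatives. The search and the limma fit were tested on simulated data. Any p-value reflects only how these samples spread, which may be technical. Lengths and GC content came from GENCODE 29. Members and lists were chosen with earlier results of these data known. The text names the members, PRDM11, called genes of each list or its smallest p, genes within 100 kb of OPLAH and the 5 nearest in pattern; other list genes were picked after their values were seen.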

Additional observations from a re-analysis of the deposited data

How the results depend on the processing

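The log2 ratio of OPLAH kept its direction and moved by less than the spread between libraries under equal summed means, median centring, pseudocounts of 1 and 5, and each library left out, a direction that its choice fixes. Among the other members, equal summed means moved GSS to -0.07 and GSR to 0.02. The small ratios of GCLC and CHAC2 changed sign in some settings. GCLC, 0.04 in the main setting, was -0.03 under equal summed means. It was -0.03 without library 1 of A and -0.01 without library 1 of B. CHAC2, -0.10 in the main setting, was 0.05 without library 3 of A. Members called lower numbered 1 to 2 with a library left out. OPLAH, chosen on this contrast, is always in that count, and GCLM joined it without library 1 of condition A. For the 9 related lists, 6 genes were lower and 3 higher by the deposited adjusted p under 0.05. A threshold of 0.01 left 4 lower and 1 higher, and a threshold of 0.1 gave 8 lower and 3 higher. With the adjustment made over rows with a mean of at least 50, 9 were lower and 4 higher. Limma on all libraries gave 12 lower and 5 higher (also with pseudocounts of 1 and 5), 11 lower and 5 higher with median centring, and 19 lower with equal summed means. With a library left out limma gave 2 to 15 lower and 0 to 6 higher: 15 and 5 when A lost library 1, 4 and 1 when A lost library 2, 5 and 6 when B lost library 1, 2 and 0 when B lost library 2, and 3 and 0 when B lost library 3. In these 5 fits the calls among all genes numbered 2146, 372, 1029, 361 and 376, against 1507 with all libraries, so the total called in the lists went up and down with the calls overall. The cause was not tested. No paired analysis was possible because the columns carry no replicate numbers. OPLAH rests on 44 to 65 reads per library in condition A.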

Other observations

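Some related genes did not pass the deposited threshold of 0.05 but were called by limma. HMOX1, heme oxygenase, had 2614, 2186 and 3006 normalised reads under A and 2043, 1236 and 1483 under B, without overlap. Its log2 ratio was 0.71, with 0.101 as the DESeq adjusted p (authors' deposited table) and 0.027 by limma. CNDP2, a dipeptidase that can split cysteinylglycine, averaged 4778 under A and 6074 under B, with adjusted p-values of 0.0768 by DESeq (authors' deposited table) and 0.0206 by limma. SELM, a selenoprotein gene of the endoplasmic reticulum, averaged 69.62 under A and 108.8 under B, with adjusted p-values of 0.0568 by DESeq (authors' deposited table) and 0.0388 by limma. These genes were picked after their values were seen.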
